A study of Homo sapiens with 15 samples.

Results

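Keratins are the intermediate filament proteins of epithelial cells, and their genes were followed here in a human breast cancer line and in 3 kinds of brain-derived cells of that line. The expression tables list 19845 gene names, of which 50 are keratin genes by symbol (keratin-associated proteins not counted). The 23 described below are those whose normalized count reached 1 in 3 or more of the 15 libraries. They comprise 4 keratins of simple epithelia, 11 of stratified epithelia, 6 of the hair follicle and 2 other epithelial keratins, or 11 type I and 12 type II genes. The remaining 27 stayed under that level, and 17 of them were at 0 in at least 8 of the 15 libraries. KRT85 lay just inside the rule, with a highest value of 1.51 and 3 libraries at 1 or more, and KRT20 just outside it, with a highest value of 1.04 in 1 library.

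The line is HCC1954, a HER2-positive breast carcinoma line with amplified ERBB2. Its parental cells (Pa, 3 libraries) were set beside cells that the labels describe as brain-tropic and as synchronous metastases (S-BM, 4 libraries), latent or residual cells (Lat, 4) or metachronous metastases (M-BM, 4). RNA was taken in all 4 groups from cells kept overnight in a medium named R3F, so what was measured is the cultured state of each kind of cell and not the lesion in the brain. The labels name no treatment and no time of recovery. They do not say if the libraries within a group came from different cultures or animals. P-values therefore measure only the spread between these libraries, which may be technical.

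Keratin filaments form only from pairs, an acidic type I protein with a basic type II protein. Simple epithelia, including the luminal cells of the breast, are marked by KRT8 with KRT18, often joined by KRT7 and KRT19. Basal cells of stratified epithelia use KRT5 with KRT14 or KRT15, the upper layers of wet mucosa KRT4 with KRT13, those of the skin KRT1 with KRT10, and wounded or fast-growing epidermis KRT6, KRT16 and KRT17. KRT81, KRT83, KRT85, KRT86 and KRT34 are hard keratins of the hair shaft, and KRT75 belongs to the companion layer of the follicle.

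The genes lie in 2 clusters of the GRCh38 genome. On chromosome 12, between positions 52168996 and 52952901, stand 25 keratins with 13 of the 23 genes, namely all type II members and the type I gene KRT18. On chromosome 17, between 40654665 and 41624842, stand the other 25, with 10 type I members. ERBB2 (chr17:39687914-39730426) ends 924.2 kb before the first of these. Values at single genes carry a limit where copies resemble each other or genes overlap. The coding sequences of KRT6A, KRT6B and KRT6C were 97.5 to 98.5% identical by GENCODE v29, and 38.2% of the 50-base windows of KRT6A occur unchanged in KRT6B. KRT81 and KRT86 were 90.1% identical and 49.2% of the windows of KRT81 occur in KRT86, whereas KRT16 and KRT17 were 72.4% identical and shared 1.17% of the windows of KRT16. Because the kit does not mark the strand, reads from the 525 exonic bases that KRT8 and KRT18 share on opposite strands cannot be assigned to either.

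Short stretches show where reads can and cannot separate such copies, with capitals at the positions where the 3 genes of a set are not all alike. First come the 60 coding bases in which the KRT6 genes differ most, coding bases 664 to 723, at chr12:52491554-52491613, chr12:52450438-52450497 and chr12:52472098-52472157, all on the minus strand.
KRT6A: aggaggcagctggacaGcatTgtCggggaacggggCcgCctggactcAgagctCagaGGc
KRT6B: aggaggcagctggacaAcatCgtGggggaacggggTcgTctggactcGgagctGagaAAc
KRT6C: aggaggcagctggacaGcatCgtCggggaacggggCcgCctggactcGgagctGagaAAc
They hold 9 differing positions, of 51 in the 1692 coding bases, while the longest run identical in all 3 genes measures 269 bases. Next come the 60 bases in which the hair keratins KRT81, KRT83 and KRT86 differ most, at chr12:52289215-52289274 and chr12:52317910-52317969 on the minus strand and chr12:52304112-52304171 on the plus strand.
KRT81: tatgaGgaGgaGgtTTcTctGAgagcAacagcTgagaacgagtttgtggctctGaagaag
KRT83: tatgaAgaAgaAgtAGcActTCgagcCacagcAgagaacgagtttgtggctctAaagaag
KRT86: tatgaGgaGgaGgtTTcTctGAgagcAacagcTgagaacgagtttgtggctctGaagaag
All 11 capitals set KRT83 apart, and KRT81 and KRT86 read alike throughout. Last comes the opposite case, the 60 bases in which KRT14, KRT16 and KRT17 are most alike, at chr17:41586424-41586483, chr17:41612272-41612331 and chr17:41624192-41624251 on the minus strand, with 1 differing position.
KRT14: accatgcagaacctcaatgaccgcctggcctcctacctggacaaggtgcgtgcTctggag
KRT16: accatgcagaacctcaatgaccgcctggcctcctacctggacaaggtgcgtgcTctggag
KRT17: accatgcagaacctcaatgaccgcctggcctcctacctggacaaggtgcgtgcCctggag

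Reads per library, recovered from the deposited values, numbered 13.25 to 21.84 M in the brain-derived groups and 15.51 to 18.66 M in Pa. A count of 3 reads is worth 0.136 to 0.225 (counting error only). All 8 carcinoma markers looked at, EPCAM and CDH1 among them, were at a mean of 1 or more in every group, and the astrocyte markers GFAP and ALDH1L1 did not exceed 0.103 and 0.139 in any library. The third astrocyte marker matched, SLC1A3, a glutamate transporter gene, was not low: it averaged 361 in Pa, 213 in S-BM, 56.2 in M-BM and 44.7 in Lat. It made up nearly all of the summed level of the 3 genes, which was 313 to 425 in Pa, 173 to 325 in S-BM, 32 to 79.6 in M-BM and 36.7 to 49 in Lat. Of the oligodendrocyte markers, MBP averaged 94 to 114 in the 4 groups and MOG did not exceed 0.114. Of the microglia markers, CSF1R reached 14.9 and AIF1 did not exceed 0.0554. The part of these genes in the keratin differences was not tested. CDH1, the epithelial cadherin, averaged 767 in S-BM, 499 in M-BM and 399 in Lat. S-BM 3 and S-BM 4 stood apart: ERBB2 was at 353 and 367 in these libraries against 4109 and 4642 in S-BM 1 and S-BM 2. The squared difference between S-BM 3 and S-BM 4, as a median over genes, was only 2.28 times that of sampling noise. Between S-BM 1 and S-BM 2 it was 15.7 times. Results that move with S-BM 3 and S-BM 4 are therefore given both ways. Among the Lat libraries, Lat 1 and Lat 2 were nearly as close, at 2.8 times on the same measure. Lat 3 was the farthest from the others, at 16.6 to 19.3 times.

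Keratin transcripts as a whole were more abundant in Pa and S-BM than in Lat and M-BM. They made up 1.19 to 1.28% of all values in Pa, 0.921 to 1.24% in S-BM, 0.507 to 0.625% in Lat and 0.541 to 0.694% in M-BM. The summed normalized count was 12646 ± 406 (SD, n = 3) in Pa, 10699 ± 1555 (n = 4) in S-BM, 5618 ± 375 (n = 4) in Lat and 6194 ± 668 (n = 4) in M-BM. Bulk RNA cannot tell fewer cells that make a keratin from less of its RNA per cell.

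The makeup of the keratin pool also differed. Stratified keratins summed to 6246 ± 186 in Pa and 4575 ± 1208 in S-BM, but to 1239 ± 252 in Lat and 1810 ± 155 in M-BM, while simple keratins summed to 5807 ± 399, 4805 ± 325, 3108 ± 179 and 3233 ± 429. The ratio of stratified to simple was thus 1.08 ± 0.0925 in Pa, 0.955 ± 0.253 in S-BM, 0.563 ± 0.035 in M-BM and 0.4 ± 0.0898 in Lat. The S-BM libraries, from 0.602 to 1.17, all lay above the Lat range of 0.336 to 0.528 and the M-BM range of 0.527 to 0.594, which touch each other. Hair follicle keratins, mostly KRT81, made up 3.69% of the keratin sum in Pa, 9.65% in S-BM, 12.6% in M-BM and 15.5% in Lat. They summed to 467 ± 69.9 in Pa, 1044 ± 324 in S-BM, 775 ± 84.5 in M-BM and 871 ± 111 in Lat. Their larger share in Lat and M-BM than in S-BM thus came with no larger sum. These sums are descriptions and were not tested.

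**Figure D1:**
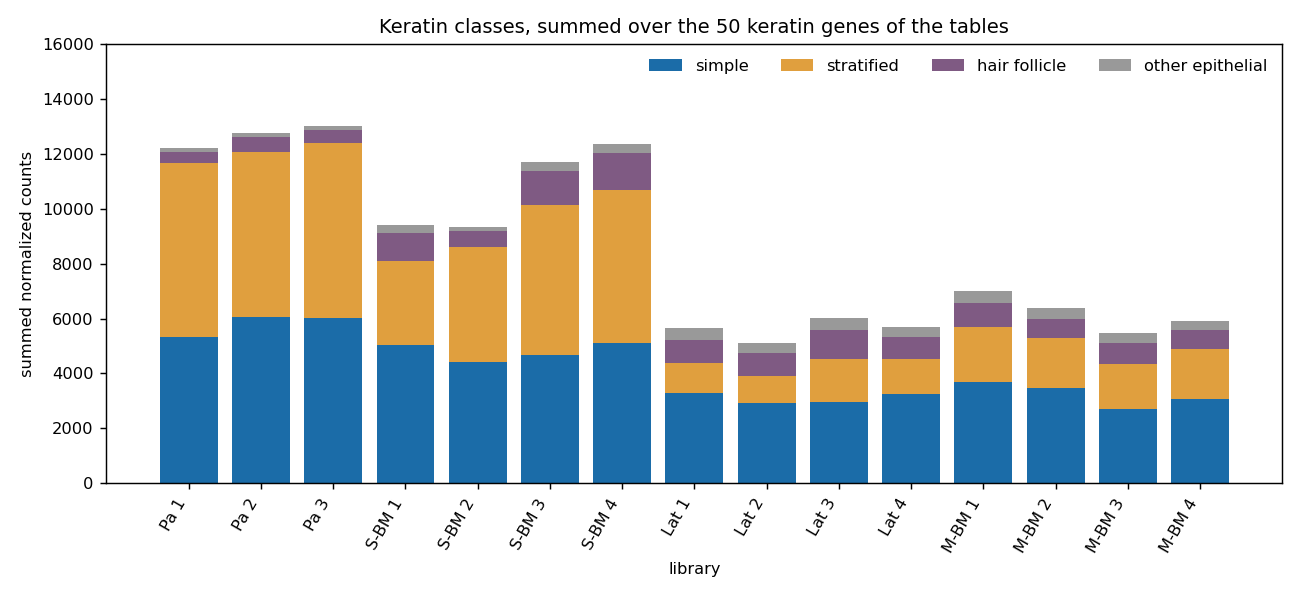
Stacked bars give the summed normalized count of the 50 keratin genes in each of the 15 libraries (vertical axis, from 0), split into simple, stratified, hair follicle and other epithelial keratins. The stratified layer is 6032 to 6373 in Pa, 3039 to 5605 in S-BM, 986 to 1568 in Lat and 1610 to 1987 in M-BM.

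Of the 23 keratins, 16 reached the level at which genes were tested, a value of at least 10 in at least 4 of the 12 brain-derived libraries. KRT4, KRT6A and KRT75 passed that filter through S-BM, where they were high. KRT23 and KRT83 passed it only with S-BM libraries counted in. Counts over the 16 therefore describe and do not support. The same holds for the fold changes and adjusted p of KRT4, KRT6A, KRT75, KRT23 and KRT83 against S-BM. A gene is called where limma's test across 9646 genes gave a Benjamini-Hochberg adjusted p under 0.05. In Lat against S-BM, 9 of the 16 keratins were called lower and 2 higher, where 29.4% of all genes tested were lower and 30.2% higher. In M-BM against S-BM, 9 were called lower and 1 higher, where 25.8% of all genes were lower and 26.9% higher. The median log2 fold change of the 16 was -0.52 in Lat and -0.58 in M-BM, against 0.01 over all genes in both. The 2 comparisons share the S-BM libraries and are set side by side. Without S-BM 3 and S-BM 4, 9 were called lower and 2 higher in Lat, and 8 lower and 2 higher in M-BM. Fold changes below are on the scale of log2(value + 1), which understates changes of low genes.

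**Figure D2:**
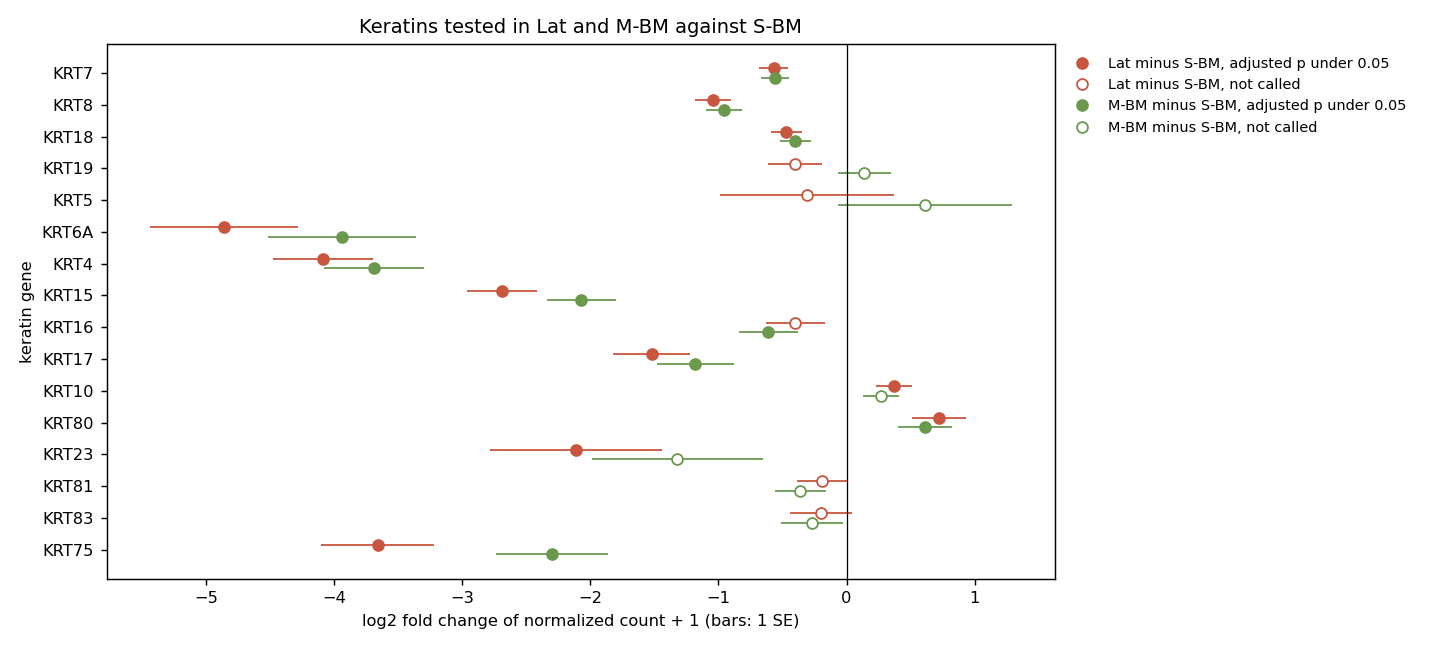
Points give the log2 fold change of each of the 16 keratins tested in Lat (red) and M-BM (green) against S-BM, with bars of 1 SE; filled points have an adjusted p under 0.05. KRT6A (-4.86 in Lat) and KRT4 (-4.09) lie farthest to the left, and KRT80 (0.72) farthest to the right.

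Among the simple keratins, KRT8, KRT18 and KRT7 were lower in Lat and in M-BM than in S-BM, and KRT19 was not called. KRT8 (chr12:52897187-52949954), the type II partner of KRT18, stood at 1671, 1964 and 2005 in Pa 1 to 3, at 1091, 1157, 999 and 1111 in S-BM 1 to 4, at 553, 492, 486 and 597 in Lat 1 to 4 and at 676, 659, 425 and 513 in M-BM 1 to 4. Every Pa library was above every S-BM library, and every S-BM library above every library of Lat and M-BM. KRT8 was 2.05-fold lower in Lat than in S-BM (log2 fold change -1.04, SE 0.14, adjusted p = 2.28e-05) and 1.95-fold lower in M-BM (-0.96, SE 0.14, adjusted p = 6.8e-05).

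KRT18 (chr12:52948871-52952901) was at 1812, 2038 and 2051 in Pa, 1869, 1618, 1484 and 1759 in S-BM, 1308, 1166, 1172 and 1194 in Lat and 1396, 1495, 1021 and 1217 in M-BM. The S-BM and Lat libraries did not overlap, M-BM 2 lay above S-BM 3, and Pa overlapped S-BM. The decrease of KRT18 was smaller than that of its partner, 1.39-fold in Lat (-0.47, SE 0.12, adjusted p = 0.00367) and 1.32-fold in M-BM (-0.4, SE 0.12, adjusted p = 0.0116); the difference between the 2 genes was not tested. The ratio of KRT18 to KRT8 per kb of transcript was 1.29 ± 0.0416 in Pa, 1.91 ± 0.167 in S-BM, 2.81 ± 0.189 in M-BM and 2.83 ± 0.238 in Lat. Pa, S-BM and Lat did not overlap in this ratio, and Lat and M-BM did.

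KRT7 (chr12:52232520-52252186), a type II keratin of glands and ducts, was at 1843, 2021 and 1958 in Pa, 2077, 1623, 2171 and 2215 in S-BM, 1410, 1273, 1302 and 1444 in Lat and 1601, 1293, 1264 and 1321 in M-BM. Pa and S-BM overlapped, and every library of Lat and M-BM was below both. It was 1.48-fold lower in Lat (-0.57, SE 0.11, adjusted p = 0.000755) and 1.47-fold lower in M-BM (-0.56, SE 0.11, adjusted p = 0.00112). KRT7 shares 314 exonic bases with KRT7-AS and KRT87P on the opposite strand.

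KRT19 (chr17:41523617-41528308), a short type I keratin of luminal breast cells that lacks a tail domain, was scarce in all groups. Its values were 18.5, 19.9 and 16.8 in Pa, 11.1, 16.1, 9.97 and 9.66 in S-BM, 8.37, 5.81, 9.73 and 10.6 in Lat and 16.2, 14.4, 11.6 and 9.7 in M-BM. Pa was above all other libraries, and the 3 brain-derived groups overlapped (adjusted p = 0.113 in Lat and 0.596 in M-BM, each against S-BM). The last simple keratin of the tables, KRT20 of intestinal epithelium, did not exceed 1.04.

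The stratified keratins held the 2 largest differences, those of KRT6A and KRT4, which both passed the filter through S-BM. KRT15 (chr17:41513743-41522529), a type I keratin of basal cells and of the hair follicle bulge, was at 5186, 5002 and 4691 in Pa, 1664, 2766, 1850 and 1934 in S-BM, 339, 294, 240 and 389 in Lat and 251, 606, 471 and 744 in M-BM. Pa, S-BM and the other 2 groups formed 3 levels with no overlap, and Lat and M-BM overlapped. KRT15 was 6.47-fold lower in Lat (-2.69, SE 0.27, adjusted p = 2.96e-06) and 4.19-fold lower in M-BM (-2.07, SE 0.27, adjusted p = 4.33e-05) than in S-BM. It alone made up 39.3 ± 3.2% of the keratin sum in Pa, 19.7 ± 6.66% in S-BM, 8.57 ± 3.74% in M-BM and 5.64 ± 1.19% in Lat.

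KRT17 (chr17:41619441-41624842), a type I keratin of wounded epidermis and of basal-like carcinoma, went the other way from Pa to S-BM. It was at 537, 451 and 604 in Pa, 1136, 1206, 2474 and 2503 in S-BM, 515, 451, 978 and 552 in Lat and 1141, 627, 648 and 695 in M-BM. S-BM 3 and S-BM 4 were the highest, M-BM 1 lay just above S-BM 1, and Lat overlapped Pa. KRT17 was 2.87-fold lower in Lat (-1.52, SE 0.3, adjusted p = 0.000676) and 2.26-fold lower in M-BM (-1.18, SE 0.3, adjusted p = 0.00504). Against S-BM 1 and S-BM 2 alone the values were -0.98 (adjusted p = 0.0131) and -0.63 (adjusted p = 0.0889), so the call in M-BM rests on those libraries. The ratio of KRT17 to KRT15 was 0.107 ± 0.0198 in Pa, 0.937 ± 0.448 in S-BM, 1.97 ± 1.73 in M-BM and 2.13 ± 1.29 in Lat.

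KRT6A (chr12:52487174-52493257), a type II keratin of wounded and fast-growing epidermis, had values of 24, 35.3 and 38.3 in Pa, 45.2, 36.1, 120.0 and 126 in S-BM, 0.616, 0.941, 4.92 and 0.976 in Lat and 3.35, 1.04, 2.77 and 13.1 in M-BM. All Lat and M-BM libraries were below all libraries of Pa and S-BM. It was 29.1-fold lower in Lat (-4.86, SE 0.58, adjusted p = 9.66e-06) and 15.4-fold lower in M-BM (-3.94, SE 0.58, adjusted p = 8.82e-05). Without S-BM 3 and S-BM 4, where it was highest, the log2 fold changes were -4.07 (adjusted p = 0.000327) and -3.15 (adjusted p = 0.00235). KRT6B (chr12:52446651-52452126) was at 2.22, 10.6, 11.6 and 12.2 in S-BM, 0.0554 to 3.26 in Lat and 0.394 to 1.81 in M-BM, under the level tested. S-BM 1 was its low library, though KRT6A was no lower there than in S-BM 2. KRT6C did not exceed 0.3 in any library.

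KRT4 (chr12:52806549-52814551), the type II keratin of wet stratified mucosa, and KRT13 (chr17:41500981-41505705), its type I partner, were parental keratins. KRT4 was at 119, 107 and 173 in Pa, 13.7, 17.1, 20.3 and 20.6 in S-BM, 0.308, 0.0554, 0 and 0.0697 in Lat and 0.0985, 0.0452, 0 and 2.85 in M-BM. Groups stood in 3 levels without overlap, and M-BM 4 with 60 reads was the one library of Lat and M-BM with more than 6. KRT4 was lower in Lat (-4.09, SE 0.39, adjusted p = 1.75e-06) and in M-BM (-3.69, SE 0.39, adjusted p = 7.94e-06), with a size that depends on the scale: in Lat it was -2.16 with a pseudocount of 5 and -7.25 by edgeR on recovered reads. KRT13 was at 128, 116 and 289 in Pa, 4.84, 4.4, 8.92 and 10.8 in S-BM, 2.67, 2.66, 1.29 and 2.44 in Lat and 19.1, 2.08, 1.46 and 2.24 in M-BM. Pa 3 was the highest library for both genes, M-BM 1 exceeded every S-BM library for KRT13, and its level was under that tested. It shares 476 exonic bases with an antisense gene.

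KRT5 (chr12:52514575-52520687), the type II keratin of basal cells, depended on which S-BM libraries were read. It was at 250.0, 216 and 440.0 in Pa, 107, 70.9, 937 and 945 in S-BM, 202, 185, 270.0 and 286 in Lat and 515, 548, 429 and 305 in M-BM. S-BM 1 and S-BM 2 were below every other library, S-BM 3 and S-BM 4 above every other, and the M-BM libraries were all above the Lat libraries. Over all 4 S-BM libraries KRT5 was not called in Lat (-0.31, adjusted p = 0.711) or M-BM (0.61, adjusted p = 0.469). Without S-BM 3 and S-BM 4 it was higher in Lat (1.4, adjusted p = 0.000627) and in M-BM (2.31, adjusted p = 5.86e-05).

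KRT14 (chr17:41582279-41586921), the usual partner of KRT5, was at 8.07, 11.2 and 16.3 in Pa, 1.65, 3.04, 2.85 and 3.32 in S-BM, 0.257, 0.277, 1.04 and 0.0697 in Lat and 0.64, 0.0904, 0.0487 and 0.856 in M-BM. Pa, S-BM and the other 2 groups did not overlap, and Lat and M-BM did. KRT16 (chr17:41609778-41615899), the usual partner of KRT6A, was at 39.7, 51.2 and 75.1 in Pa, 35.1, 42.8, 22.3 and 25.1 in S-BM, 19.4, 16.5, 30.9 and 27 in Lat and 26.4, 17.1, 17.1 and 18.6 in M-BM. It was thus lower in S-BM 3 and S-BM 4 than in S-BM 1 and S-BM 2, the reverse of KRT6A and KRT17. It was not called in Lat (-0.4, adjusted p = 0.143) and was 1.53-fold lower in M-BM (-0.61, SE 0.23, adjusted p = 0.0353), a call lost without any one of S-BM 1, S-BM 2, M-BM 2, M-BM 3 or M-BM 4. Without S-BM 3 and S-BM 4 it was called in both, at -0.74 (adjusted p = 0.0202) and -0.96 (adjusted p = 0.00659).

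KRT10 (chr17:40818117-40822595), the type I keratin of the upper epidermis, was the one stratified keratin called higher in Lat over all 4 S-BM libraries. Its values were 37.3, 35 and 39.9 in Pa, 26.5, 26.6, 23.8 and 22.2 in S-BM, 30.1, 34.7, 35.2 and 29.6 in Lat and 28, 22.6, 38.4 and 33.4 in M-BM. Every Lat library was above every S-BM library, and M-BM spanned both. The difference was 1.3-fold in Lat (0.37, SE 0.14, adjusted p = 0.0345) and was not called in M-BM (0.27, adjusted p = 0.121). The call was lost without Lat 2 (adjusted p = 0.0855), Lat 3 (0.0801), S-BM 3 (0.0715) or S-BM 4 (0.0896), and against S-BM 1 and S-BM 2 alone (0.27, adjusted p = 0.21). Its epidermal partner KRT1 did not exceed 0.273, and KRT9 of palms and soles lay between 0.487 and 2.69.

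**Figure D3:**
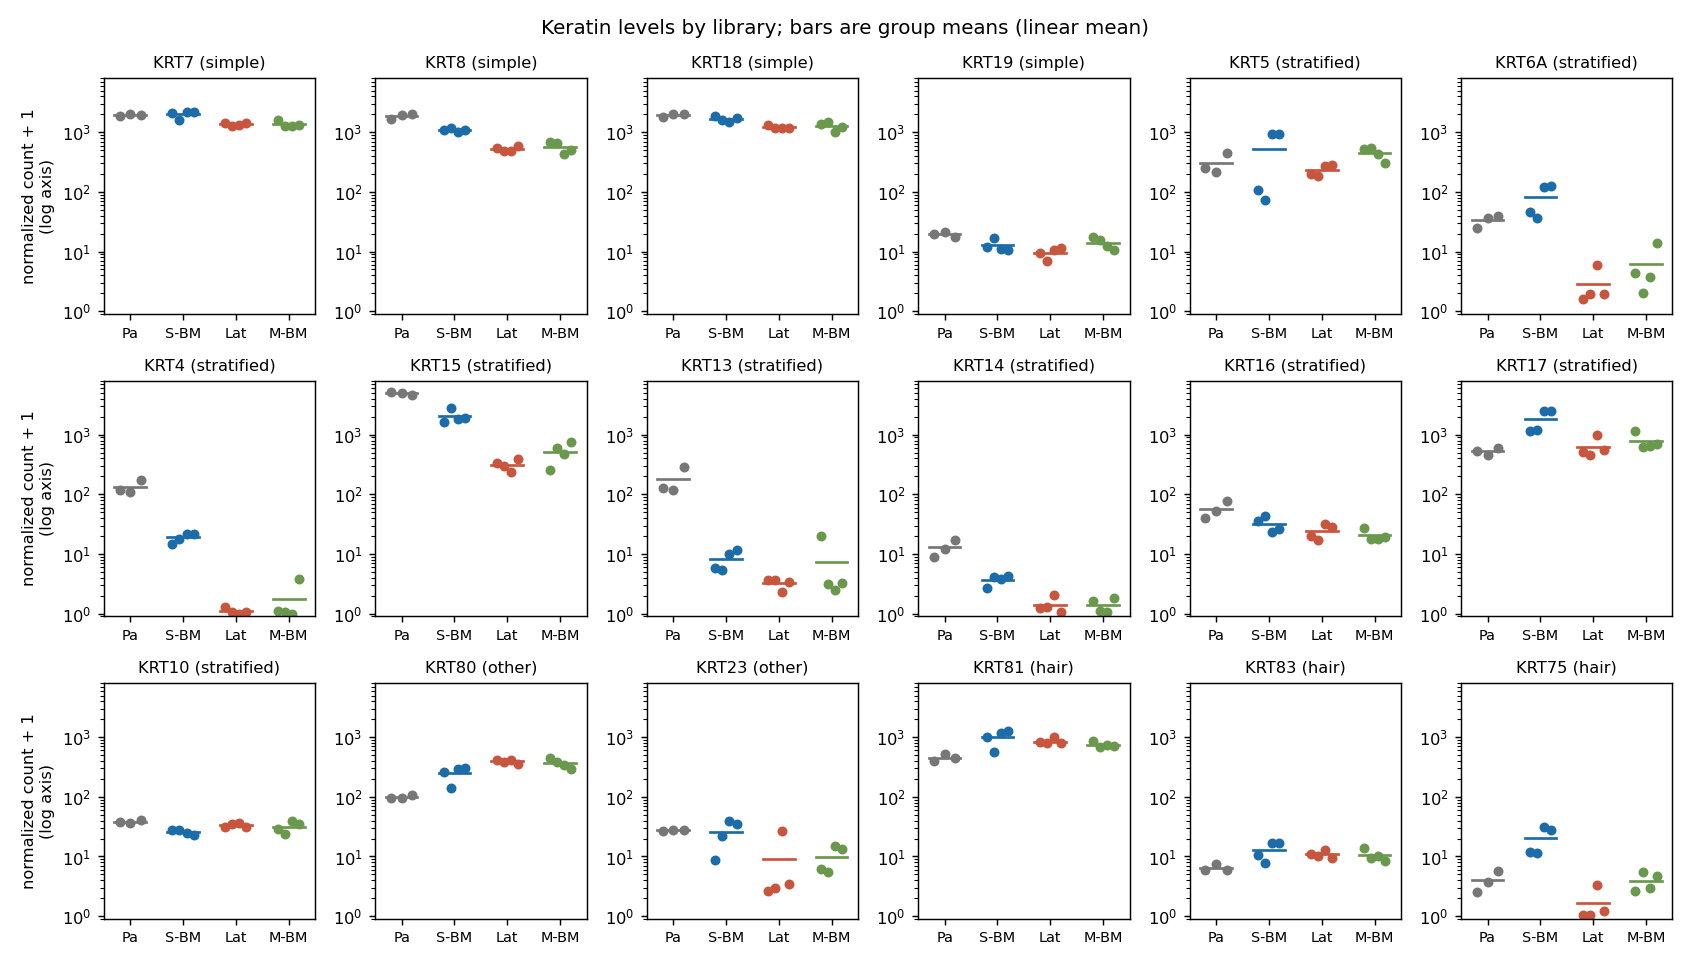
Each panel gives 1 keratin with a mean of at least 10 in some group, 1 point per library, on a log axis of normalized count + 1; short bars are group means. KRT15, KRT4 and KRT8 step down from Pa to S-BM to Lat and M-BM, KRT80 steps up, and KRT5 splits S-BM into 107 and 70.9 against 937 and 945.

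Among the other epithelial keratins, KRT80 (chr12:52168996-52192000), a type II keratin found near desmosomes, was higher in both groups. Its values were 95, 95.8 and 106 in Pa, 265, 137, 289 and 304 in S-BM, 410.0, 384, 421 and 356 in Lat and 442, 384, 344 and 294 in M-BM. Pa was below all other libraries, S-BM below all Lat libraries, and M-BM 4 below S-BM 4. KRT80 was 1.65-fold higher in Lat (0.72, SE 0.21, adjusted p = 0.00856) and 1.52-fold higher in M-BM (0.61, SE 0.21, adjusted p = 0.0248). The second call was lost without M-BM 1 (0.51, adjusted p = 0.0725) or M-BM 2 (0.58, adjusted p = 0.0547).

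KRT23 (chr17:40922696-40937634), a type I keratin, was at 25.7, 27.3 and 26.6 in Pa, 7.63, 21.2, 38 and 33.9 in S-BM, 1.64, 1.99, 25.7 and 2.51 in Lat and 5.12, 4.56, 13.9 and 12.3 in M-BM. Lat 3 was above S-BM 1 and S-BM 2, and the other 3 Lat libraries were below every library of the other groups. KRT23 was 4.33-fold lower in Lat (-2.11, SE 0.67, adjusted p = 0.0142) and not called in M-BM (-1.32, adjusted p = 0.112). It passed the filter only with S-BM libraries counted in, so its values against S-BM describe and do not support. Without Lat 3 the values were -2.9 (adjusted p = 0.000237) and -1.32 (adjusted p = 0.0227). Against S-BM 1 and S-BM 2 alone the gene was called in neither group (-1.41, adjusted p = 0.159, and -0.61, adjusted p = 0.558).

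Of the hair follicle keratins, KRT81 was abundant and KRT75 differed. KRT81 (chr12:52285913-52291534) was at 392, 528 and 446 in Pa, 1010, 569, 1175 and 1267 in S-BM, 817, 785, 996 and 786 in Lat and 869, 690.0, 752 and 701 in M-BM. Pa was below every other library, S-BM 2 was the low library of its group, and the brain-derived groups overlapped. KRT81 was not called in Lat (-0.19, adjusted p = 0.423) or M-BM (-0.36, adjusted p = 0.144). Without S-BM 2 it was lower in both, at -0.44 (adjusted p = 0.0062) and -0.61 (adjusted p = 0.00103), and DESeq2 on recovered reads called it lower in M-BM (-0.44, adjusted p = 0.0445).

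KRT83 (chr12:52314301-52321398) stood far below KRT81 in level. It was at 4.83, 6.37 and 4.97 in Pa, 9.51, 6.68, 15.7 and 16 in S-BM, 10.1, 9.08, 11.8 and 8.3 in Lat and 12.7, 8.4, 9.05 and 7.52 in M-BM, and was not called (adjusted p = 0.495 and 0.37). KRT86, much of whose coding sequence is shared with KRT81, lay between 1.8 and 2.44 in Pa and between 3.54 and 9.37 elsewhere. KRT85 stayed at or under 1.51.

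KRT75 (chr12:52424070-52434525) was at 1.52, 2.75 and 4.64 in Pa, 10.9, 10.3, 30.4 and 26.6 in S-BM, 0.0514, 0.0554, 2.38 and 0.209 in Lat and 1.62, 4.47, 1.95 and 3.66 in M-BM. S-BM was above all other libraries, and Lat 3 was the one Lat library within the range of Pa and M-BM. It was 12.6-fold lower in Lat (-3.66, SE 0.44, adjusted p = 1.08e-05) and 4.92-fold lower in M-BM (-2.3, SE 0.44, adjusted p = 0.000677). Against S-BM 1 and S-BM 2 alone these were -2.99 (adjusted p = 0.000453) and -1.63 (adjusted p = 0.0202). KRT75 shares 221 exonic bases with an antisense gene.

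KRT34 (chr17:41377650-41382403), a type I hair keratin, showed the opposite pattern at low level. It was at 0, 0 and 0.0546 in Pa, 0.513, 0.152, 0.75 and 0.815 in S-BM, 3.18, 4.32, 13.5 and 3.7 in Lat and 4.73, 1.99, 3.07 and 1.81 in M-BM. Pa was below S-BM, and S-BM below every library of Lat and M-BM, with Lat 3 the highest. In reads these values are 0, 0 and 1 in Pa, 3 to 14 in S-BM and 38 to 260 in Lat and M-BM.

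Genes under the level tested were read with a lower filter, a value of 1 in at least 4 of 12 libraries. KRT6B and KRT14 passed it through S-BM and KRT34 through Lat and M-BM, where they are high, so their values are a description. There KRT6B was lower in Lat (-2.37, adjusted p = 0.000863) and M-BM (-2.17, adjusted p = 0.00209), and so was KRT14 (-1.42, adjusted p = 0.000242, and -1.42, adjusted p = 0.000335). KRT34 was higher in both (2.02, adjusted p = 0.000217, and 1.29, adjusted p = 0.00699). KRT13 was lower in Lat (-1.28, adjusted p = 0.0478) and not called in M-BM (-0.73, adjusted p = 0.259). KRT86 and KRT9 were not called in either.

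No keratin passed the test between M-BM and Lat. None of the 16 was called higher or lower in M-BM against Lat, by limma, by edgeR or by DESeq2, where 0.0933% of all genes tested were called higher and 0.0518% lower. At an unadjusted p under 0.05 there were 3: KRT75 (1.36, adjusted p = 0.276), KRT15 (0.63, adjusted p = 0.424) and KRT19 (0.54, adjusted p = 0.36). KRT5 (0.92, adjusted p = 0.663) was higher in all 4 M-BM libraries than in all 4 Lat libraries. A difference that misses the threshold is not shown to be absent.

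The comparison with the parental cells is one of levels, since Pa stands in a table of its own, and no test was made. Of 18 keratins at a value of at least 10 in 3 or more libraries, 6 had all Pa libraries above the S-BM range (KRT4, KRT8, KRT10, KRT13, KRT15 and KRT19), which held for 20.9% of all genes at that level. Another 5 had Pa below S-BM (KRT80, KRT81, KRT83, KRT75 and KRT17), as did 22.1% of all genes. Against Lat, 9 were above (36.3% of all genes) and 3 below (35.7%). Against M-BM, 11 were above (33.3%) and 4 below (33.9%). KRT4, KRT8, KRT13, KRT15 and KRT19 lay above all 3 groups in Pa, and KRT80, KRT81 and KRT83 lay below all 3. KRT13 reached the level of 10 through Pa, and KRT75 and KRT6B through S-BM, where they were high. The counts over the 18 therefore describe and do not support.

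Per kb of transcript, the order of the keratins changed between groups. In Pa it ran KRT15 (2072 ± 104 per kb), KRT18 (1385 ± 94.4), KRT7 (1106 ± 51.3), KRT8 (1071 ± 104) and KRT17 (350.0 ± 50.6), of which KRT7 and KRT8 did not differ beyond their spread. In S-BM, KRT17 (1206 ± 502), KRT18 (1185 ± 118) and KRT7 (1153 ± 155) led and did not differ beyond their spread, ahead of KRT15 (858 ± 204) and KRT8 (621 ± 37.7). KRT17 ran from 749 per kb in S-BM 1 to 1650 in S-BM 4. It lay above KRT18 and KRT7 in S-BM 3 and S-BM 4, and below both in S-BM 1 and S-BM 2. Lat and M-BM were led by KRT18 (852 ± 46.8 and 903 ± 147) and KRT7 (774 ± 46.9 and 781 ± 88.9). KRT81 (439 ± 52.4) and KRT17 (411 ± 158) came next in Lat, and KRT17 (513 ± 161) and KRT81 (390.0 ± 42.3) in M-BM, in each case without a difference beyond the spread. KRT15 stood sixth in both, at 132 ± 26.5 and 216 ± 87.8. The place of KRT15 depends on the transcript: its length was taken as 2.394 kb, and another principal transcript measures 5.24 kb. At that length KRT15 stood at 947 ± 47.7 per kb in Pa, below KRT18, KRT7 and KRT8, and at 392 ± 93.2 in S-BM, 98.9 ± 40.1 in M-BM and 60.2 ± 12.1 in Lat.

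The balance of type I to type II keratins was higher in Pa than in Lat. The ratio of the 2 types per kb was 1.52 ± 0.11 in Pa, 1.28 ± 0.209 in S-BM, 0.945 ± 0.0753 in M-BM and 0.837 ± 0.0615 in Lat. With the longer KRT15 transcript, an alternative chosen after seeing the data, it was 1.09 ± 0.0578 in Pa, 1.09 ± 0.128 in S-BM, 0.876 ± 0.059 in M-BM and 0.795 ± 0.0688 in Lat, so the gap between Pa and S-BM rests on the transcript chosen. These are transcript levels, and the amounts of protein were not measured.

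S-BM 3 and S-BM 4 lay above S-BM 1 and S-BM 2 for KRT5, KRT6A, KRT17 and KRT75. Of the other keratins with a group mean of at least 10, the same held for KRT4, KRT7, KRT13, KRT23, KRT80, KRT81 and KRT83. The reverse held for KRT10, KRT16 and KRT19, and KRT8, KRT14, KRT15 and KRT18 did not split. How often other genes split this way was not counted, so the list is not a result about keratins as a set. ERBB2, which lies on chromosome 17 as the type I cluster does, was lower in the same libraries, at 353 and 367; its part in these differences was not tested. KRT7, KRT8, KRT18, KRT15, KRT4, KRT6A, KRT75, KRT17 and KRT80 were called in the same direction in Lat with and without these libraries.

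**Figure D4:**
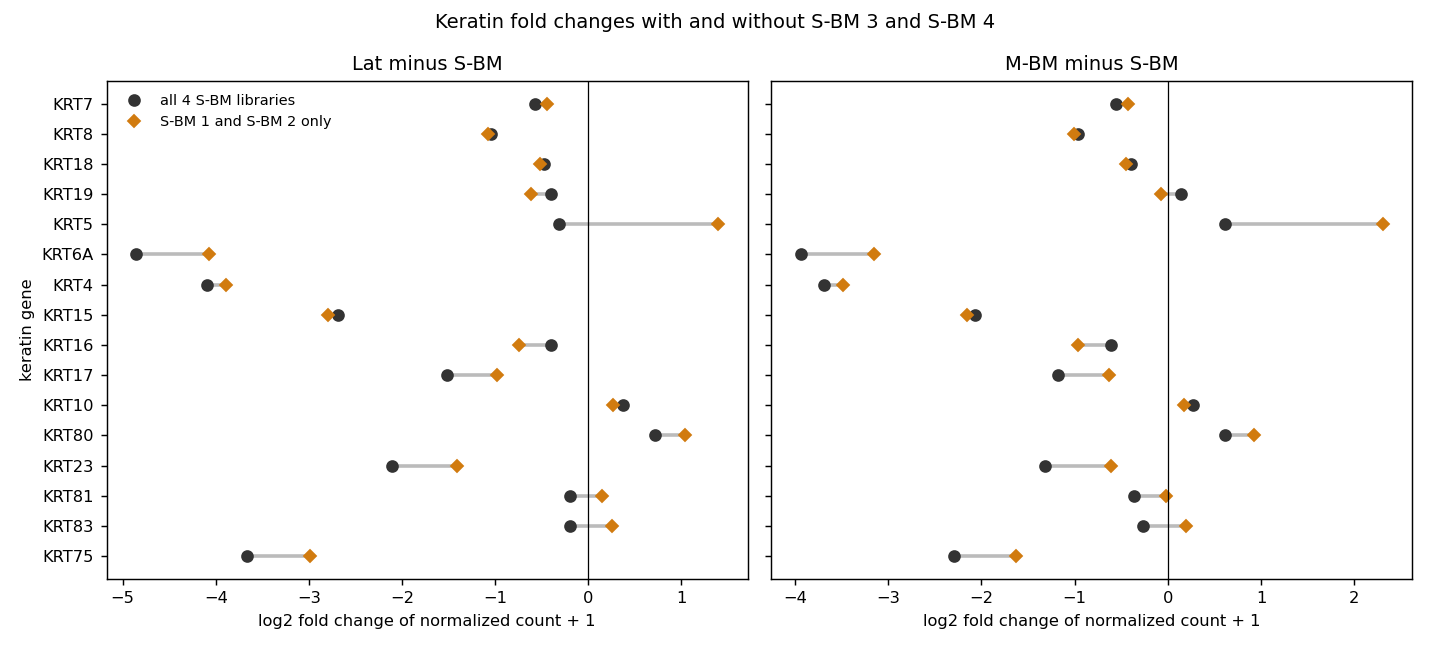
Log2 fold changes of the 16 keratins against all 4 S-BM libraries (circles) and against S-BM 1 and S-BM 2 alone (diamonds), for Lat (left) and M-BM (right). KRT5 moves from -0.31 to 1.4 in Lat and from 0.61 to 2.31 in M-BM, and KRT8 from -1.04 to -1.08 in Lat.

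Keratin filaments are anchored at desmosomes and bound by linker and adaptor proteins. Of 16 such genes tested, 5 were lower and 2 higher in Lat, and 1 lower and 1 higher in M-BM. Shares among all genes tested were 29.4% lower and 30.2% higher in Lat, and 25.8% and 26.9% in M-BM. PLEC, encoding the linker plectin, averaged 221 ± 56.1 in S-BM, 367 ± 76.5 in M-BM and 376 ± 48.5 in Lat, and was 1.74-fold higher in Lat (adjusted p = 0.00304) and 1.68-fold higher in M-BM (adjusted p = 0.00585). DSP, encoding the desmosomal keratin anchor desmoplakin, was 1.29-fold lower in Lat (adjusted p = 0.0295) and not called in M-BM (adjusted p = 0.0578), and JUP (plakoglobin) was called in neither (adjusted p = 0.463 and 0.826). PKP2, a plakophilin of desmosomes, and SFN, an adaptor known to bind KRT17, were lower in Lat (1.34-fold, adjusted p = 0.0241, and 1.29-fold, adjusted p = 0.0483) and not called in M-BM (adjusted p = 0.206 and 0.671).

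Genes of the cornified envelope, the layer that stratified cells build beside their keratins, were mostly too low to test, with 6 of 27 tested. Of the 6, 2 were lower and 1 higher in Lat, and 2 lower and 1 higher in M-BM. Over all genes tested the shares were 29.4% lower and 30.2% higher in Lat, and 25.8% and 26.9% in M-BM. TGM1, CSTA and SCEL were called in neither. KLK7 and KLK5, proteases that shed the outer skin layer, were 4.02-fold (adjusted p = 6.01e-06) and 2.08-fold lower in Lat (adjusted p = 0.00147), and 2.64-fold and 2.24-fold lower in M-BM (adjusted p = 0.000179 and 0.000954). KLK7 passed the filter through S-BM, at 13.3 to 19.9 there against 1.86 to 4.21 in Lat and 4.11 to 7.61 in M-BM. Its values against S-BM, and the counts of the 6 that include it, therefore describe and do not support. ABCA12, the lipid transporter of the skin barrier, was higher in both (1.59-fold, adjusted p = 0.00371, and 1.7-fold, adjusted p = 0.0019).

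Of 16 epithelial transcription factors tested, 6 were higher and 7 lower in Lat, and 4 higher and 7 lower in M-BM, where 30.2% of all genes tested were higher and 29.4% lower in Lat, and 26.9% and 25.8% in M-BM. EHF, an ETS factor of epithelia, averaged 623 ± 12.5 in Pa, 301 ± 44.3 in S-BM, 126 ± 47.7 in M-BM and 75.9 ± 15.2 in Lat. It was 3.94-fold lower in Lat (adjusted p = 1.29e-05) and 2.5-fold lower in M-BM (adjusted p = 0.00049). FOXA1, the luminal pioneer factor, was 2.32-fold (adjusted p = 5.04e-06) and 2.08-fold lower (adjusted p = 3.03e-05), and MAF 3.09-fold (adjusted p = 5.6e-05) and 4.49-fold higher (adjusted p = 1.08e-05). TP63, the basal-cell factor that acts on KRT5 and KRT14, averaged 346 ± 66.4 in S-BM, 331 ± 51.7 in M-BM and 265 ± 17.3 in Lat. It was lower in Lat (1.29-fold, adjusted p = 0.0375) and not called in M-BM (adjusted p = 0.747).

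The intermediate filaments of other cell types and of the nucleus were mostly under the level tested. Of 5 tested, 1 was higher (LMNB2, 1.3-fold, adjusted p = 0.0426) and 1 lower in Lat (LMNB1, 1.38-fold, adjusted p = 0.0136), both encoding lamins of the nucleus. In M-BM, LMNB2 was the one of the 5 called (1.32-fold higher, adjusted p = 0.035). Over all genes the shares were 30.2% higher and 29.4% lower in Lat, and 26.9% and 25.8% in M-BM. VIM, the mesenchymal filament vimentin, was at 11.9 to 20.5 in Pa, 12.1 to 18 in S-BM, 5.65 to 37 in Lat and 4.79 to 46.2 in M-BM, and was not called (adjusted p = 0.416 and 0.539). Its highest Lat library was Lat 3, which was also the highest Lat library for KRT23, KRT34, KRT6A, KRT75, KRT81 and KRT17.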

How the data were processed

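Total RNA of 15 libraries was extracted with a column kit and made into libraries with a TruSeq kit that does not mark the strand, per the labels' protocols. The submitters' processing notes name Bowtie 0.12.2 as aligner and GRCh38 as build. How reads were counted and scaled, and on which annotation, is not given in the sources used here. Each deposited value is a signal, a normalized count per gene and library that the authors had scaled to sums of 963150 to 1026297. Pa stands in a separate table, and its values were used as deposited. The median ratio of brain-derived to Pa values was 1.0266 over 8021 genes, which measures only a common shift in scale. Shifts of single genes that come from the separate processing were not measured, so level comparisons with Pa may be off by more.

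A single model was fitted to the 12 S-BM, Lat and M-BM libraries (limma 3.58.1, R 4.3.3; log2 of the value plus a pseudocount of 1), with group means, a variance trend, 9 residual degrees of freedom and two-sided tests, after a filter of at least 10 in at least 4 libraries (9646 genes). P-values were adjusted by Benjamini-Hochberg over all genes tested, with a threshold of 0.05. The script was tested on simulated data. Low values were whole multiples of 1 read in 100% of cases within 0.05 reads, so reads were recovered and tested with edgeR 4.0.16 and DESeq2 1.42.0 as alternatives. In Lat against S-BM, M-BM against S-BM and M-BM against Lat, limma called 5754, 5084 and 14 genes, edgeR 5748, 5072 and 12, and DESeq2 5903, 5315 and 141.

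The members and lists were chosen with earlier results of these data known. Every keratin with a group mean of at least 10 is given in all libraries. Of the lists of partner genes, up to 3 called genes with the largest change in Lat are named, plus DSP, PLEC, JUP, TP63, SFN and VIM. Gene models, overlaps and coding sequences are those of GENCODE release 29, in which all 23 members were matched, and per-kb values use 1 protein-coding transcript per gene.

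The labels give groups the same replicate numbers. Residuals of same-numbered libraries correlated at -0.272 to 0.319, and 4 of 12 pairs were above 0.1, so no pairing was assumed. Alternatives covered filters, pseudocounts, quantile normalization, the tool, the groups fitted, a replicate block, left-out libraries, averaged closest pairs and summed copies, and, added after seeing the data, the longest principal transcript of KRT15.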

Additional observations from a re-analysis of the deposited data

Results flagged for a closer look

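In 69 groups of 4 libraries, 12 keratin values stood apart from the other 3 of their group by more than Dixon's critical ratio; chance gives this in about 1 in 20 groups. Of these, 7 are in Lat 3. In that library KRT81 was at 996 (the others at 785 to 817), KRT75 at 2.38 (0.0514 to 0.209), KRT6B at 3.26 (0.0554 to 0.488), KRT6A at 4.92 (0.616 to 0.976), KRT23 at 25.7 (1.64 to 2.51) and KRT34 at 13.5 (3.18 to 4.32), all high, and KRT13 at 1.29 was low (2.44 to 2.67). In M-BM 1, KRT13 at 19.1 (1.46 to 2.24), KRT16 at 26.4 (17.1 to 18.6) and KRT17 at 1141 (627 to 695) were high. KRT4 was high in M-BM 4, at 2.85 (0 to 0.0985), and KRT6B low in S-BM 1, at 2.22 (10.6 to 12.2).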

How the results depend on the processing

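Each result was recomputed under 24 alternatives. The count of keratins called lower stayed between 8 and 12 in Lat and between 8 and 11 in M-BM, and no alternative called a keratin between M-BM and Lat. Over all genes and both directions, calls in Lat ran from 4845 of 9646 (closest pairs averaged) to 7982 of 19464 (no filter). In the same settings they ran from 4381 to 6773 in M-BM, and between M-BM and Lat all settings gave 3 to 141. The keratin counts include genes that passed the filter through S-BM, so they describe and do not support. The count called higher in Lat, 2, ranged from 1 to 2 with a library left out, was 1 with the closest pairs averaged and 3 with a filter at 1. Those counts are over unequal numbers of keratins tested: 22 with a filter at 1, 23 with no filter, 14 with copies summed and 16 otherwise. The count called higher in M-BM, 1, ranged from 0 to 1 with a library left out, was 0 with only the 2 groups compared in the fit, and was 2 with a filter at 1, with no filter and without S-BM 3 and S-BM 4. With the replicate block, 2 calls changed in M-BM: KRT16 was lost (-0.61, adjusted p = 0.056) and KRT23 gained (-1.32, adjusted p = 0.0179). KRT23 in Lat was not called by edgeR (-1.64, adjusted p = 0.0896) or DESeq2 (-1.65, adjusted p = 0.103).

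Directions turned only in genes not called with all libraries in the fit. Without S-BM 3 and S-BM 4, KRT81 was at 0.15, KRT83 at 0.26 and KRT5 at 1.4 in Lat, and KRT83 at 0.19 and KRT19 at -0.07 in M-BM. With 1 library left out, KRT5 ranged from -0.98 to 0.26 in Lat (0.26 without S-BM 3 or without S-BM 4) and from -0.06 (without S-BM 2) to 1.18 in M-BM; it was 0.35 in Lat with pairs averaged and -0.22 in M-BM by edgeR and DESeq2. In M-BM against Lat, leaving out 1 library gave KRT7 -0.07 to 0.05, KRT83 -0.21 to 0.02 and KRT4 -0.07 to 0.57. The ranges were -0.02 to 0.21 for KRT8, -0.01 to 0.17 for KRT18 and -0.22 to 0.03 for KRT10. Quantile normalization gave KRT4 -0.1. KRT14, KRT16 and KRT17 summed as copies gave 0.32. KRT17 far exceeds KRT16 in that sum, so this is not a value of KRT16 alone. Sizes of low genes depended on the pseudocount and tool: in Lat, KRT4 ranged from -7.38 to -2.16, KRT6A from -5.45 to -3.51 and KRT75 from -4.84 to -2.03, all called. The longer KRT15 transcript, added after seeing the data, moved the ratio of type I to type II keratins in Pa from 1.52 to 1.09. The cause of the other shifts was not tested. Differences among genes under about 3 reads were not detectable at this depth.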
